A study of Mus musculus with 24 samples.

Results

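The genes that control entry of a cell into S phase were followed through early differentiation of mouse embryonic stem cells with and without SMAD2 and SMAD3, the transcription factors that carry Nodal and Activin signals. The group held 10 genes, chosen by name: the D cyclins Ccnd1, Ccnd2 and Ccnd3, the E cyclins Ccne1 and Ccne2, the CDK inhibitor genes Cdkn1b, Cdkn2a and Cdkn2b, and Myc and Rb1. They were matched by gene identifier to GENCODE M21 symbols and made up 10 of the 53379 genes in the deposited tables. All 10 passed the filter on low counts. The RNA came from the E14Tg2a.IV line of embryonic stem cells in 5 groups of 2 libraries: wild-type cells at the pluripotent stage (day 0), and embryoid bodies, the aggregates that form in medium without LIF, at day 4 from wild-type, Smad2-/-, Smad3-/- and Smad2/3 double knockout cells. The 2 libraries of a knockout carry the same line number in the deposited files, so that line and genotype cannot be told apart. Nothing in the labels says whether both libraries of a group are separate cultures. If they are not, the p-values below measure technical spread. The other 14 samples of the series, from chromatin immunoprecipitation, were not analysed here.

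In G1, D cyclins activate CDK4 and CDK6 and E cyclins activate CDK2. These kinases phosphorylate the retinoblastoma protein RB1, which then releases E2F transcription factors. The INK4 inhibitors (from Cdkn2a and Cdkn2b) block CDK4 and CDK6, the CIP/KIP inhibitors (from Cdkn1b and its relatives) block CDK2 complexes, and MYC drives growth genes and G1 cyclins. Mouse embryonic stem cells are known for a short G1 phase with abundant cyclin E and little D cyclin, and G1 lengthens as they differentiate. In many epithelial cells, TGF-beta signals through SMADs raise Cdkn2b and lower Myc.

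The libraries held 35733249 to 53672980 expected counts each. Smad2 RNA was 38.3 to 49.9 CPM (counts scaled to the library total) in wild-type embryoid bodies, 19.2 to 20.4 in the Smad2 knockout and 22.2 to 22.7 in the double knockout. Wild-type day 0 cells, which keep Smad2, held 19.1 to 22.0 CPM. A lower Smad2 RNA level does not by itself check the label of Smad2 loss. Smad3 RNA was 42.0 to 44.9 CPM in wild-type embryoid bodies, 48.7 to 49.7 in the libraries labelled Smad3 knockout, 30.8 to 31.0 in the Smad2 knockout (-0.49, adjusted p = 0.0405) and 25.7 to 28.0 in the double knockout (-0.69, adjusted p = 0.0136). The RNA level of Smad3 therefore checks neither label of Smad3 loss. The labelled cells held their markers: 8 naive pluripotency genes summed to 1800 to 1930 CPM at day 0 and to 223 to 264 in wild-type embryoid bodies, where 5 primed epiblast genes summed to 1860 to 2030. Trophoblast markers stood apart in the libraries without Smad2: 12 genes summed to 2160 to 3140 CPM in Smad2 knockout and 2630 to 3220 in double knockout libraries, against 235 to 426 in wild-type embryoid bodies and 684 to 866 in the Smad3 knockout. Of these 12 genes, none at 0 in any group, 12 were called higher when Smad2 alone was lost and 11 in the double knockout. In the Smad3 knockout 4 were called higher too. Of all genes, 15.4%, 10.8% and 0.431% were called higher in these 3 groups. Other markers fell there: 10 extraembryonic endoderm genes summed to 796 to 915 CPM in wild-type embryoid bodies, 43.6 to 45.5 in the Smad2 knockout, 501 to 506 in the Smad3 knockout and 108 to 167 in the double knockout (10, 0 and 9 called lower). The primed epiblast sum was 468 to 544, 968 to 978 and 293 to 297 CPM in these knockouts (4, 1 and 5 of 5 lower). The sum of 6 primitive streak genes was 387 to 447 CPM in the wild type and 14.9 to 204, 195 to 230 and 6.61 to 7.95 in the knockouts (1, 0 and 6 lower). Of all genes, 20.1%, 0.123% and 12.3% were called lower in these 3 groups. The primitive streak counts in all 3 knockouts, and the trophoblast count in the Smad3 knockout, changed when single libraries were left out. The part of these cell types in the changes below was not tested. In such bulk RNA, fewer cells of a type and less RNA per cell cannot be told apart. Ribosomal protein genes held 15.3% and 11.3% of the counts in the day 0 libraries and 13.2% and 12.4% in the Smad2 knockout, against 5.66% to 7.75% in the other groups, and the mean transcript length behind a count was shorter there. For this reason, values are given on more than 1 scale below: CPM after TMM scaling, and TPM, the RSEM measure of transcript abundance per length.

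Of the 10 genes, 7 changed between wild-type day 0 and day 4 (4 higher and 3 lower), where 52.1% of the 19470 genes tested were called at an adjusted p under 0.05 (28.9% higher, 23.2% lower). Against wild-type embryoid bodies, 4 changed in the Smad2 knockout (3 higher, 1 lower; 35.5% of all genes called, 15.4% higher and 20.1% lower), 1 in the Smad3 knockout (lower; 0.555% called, 0.431% higher and 0.123% lower) and 5 in the double knockout (3 higher, 2 lower; 23.1% called, 10.8% higher and 12.3% lower). Against day 0, the Smad2 knockout had 5 members called (3 higher, 2 lower; 21.9% of all genes called, 12.6% higher and 9.27% lower), the Smad3 knockout 7 (4 higher, 3 lower; 54.4% called, 29.7% and 24.7%) and the double knockout 8 (6 higher, 2 lower; 55.4% called, 29.4% and 26.0%). The first 3 knockout comparisons share the wild-type day 4 libraries. The members' median log2 differences were -0.29, 0.20 and 0.55, against -0.01, -0.04 and -0.05 for all genes tested. The counts were thus near the background from day 0 to day 4 and in the Smad2 knockout. On the scale of TPM plus 1, where the median of all genes was -0.51 in the Smad2 knockout, 9 members were called there. Of all 14328 genes on that scale, 6968 were called there (800 higher, 6168 lower). In the double knockout, 2 members remained called without double knockout replicate 1, and 3 without replicate 2. In the Smad3 knockout the members called numbered 3 without wild-type day 4 replicate 2 and 0 without either library of day 0, of the Smad3 knockout or of the double knockout.

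**Figure D1:**
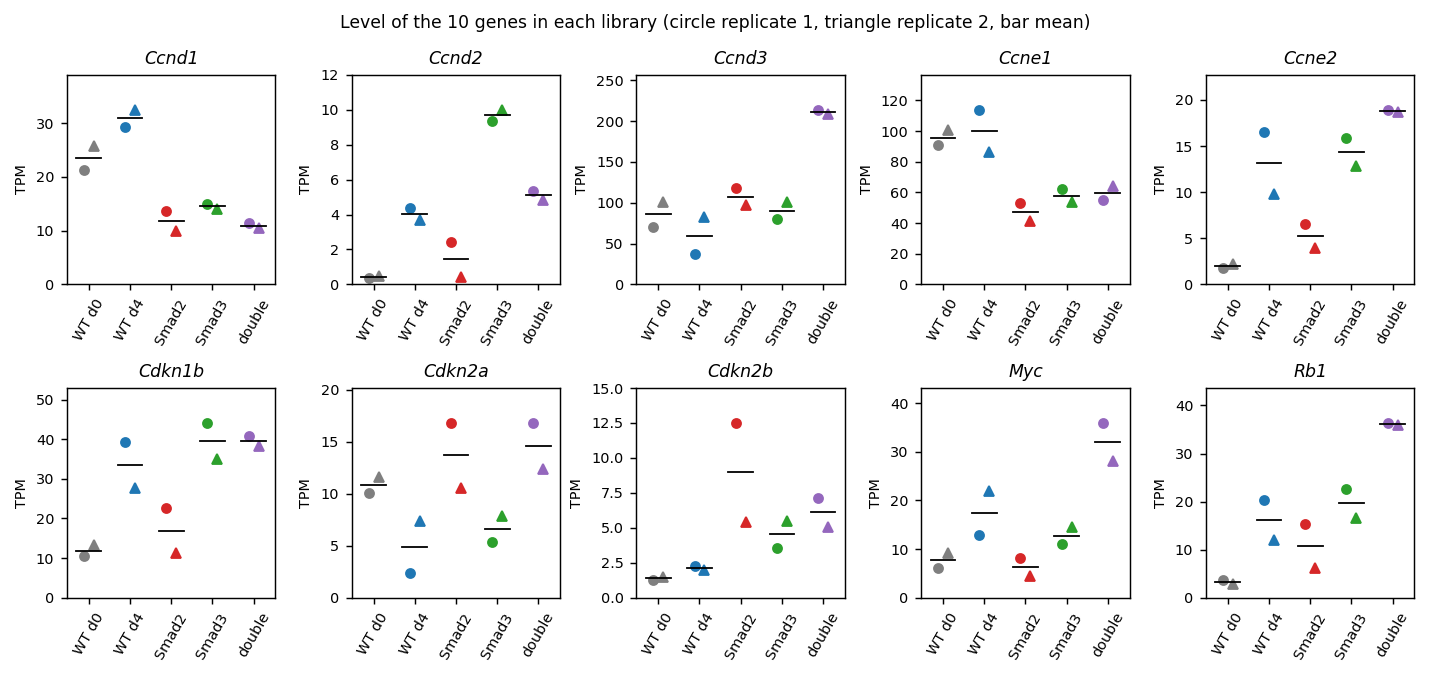
TPM of the 10 genes in each of the 10 libraries, 1 panel a gene with its own linear axis from 0; circles are replicate 1, triangles replicate 2 and bars the group mean. Ccnd3 stood at 214 and 209 TPM in the double knockout, and Cdkn2b at 12.5 and 5.42 TPM in the Smad2 knockout against 2.24 and 1.99 in wild-type embryoid bodies.

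**Figure D2:**
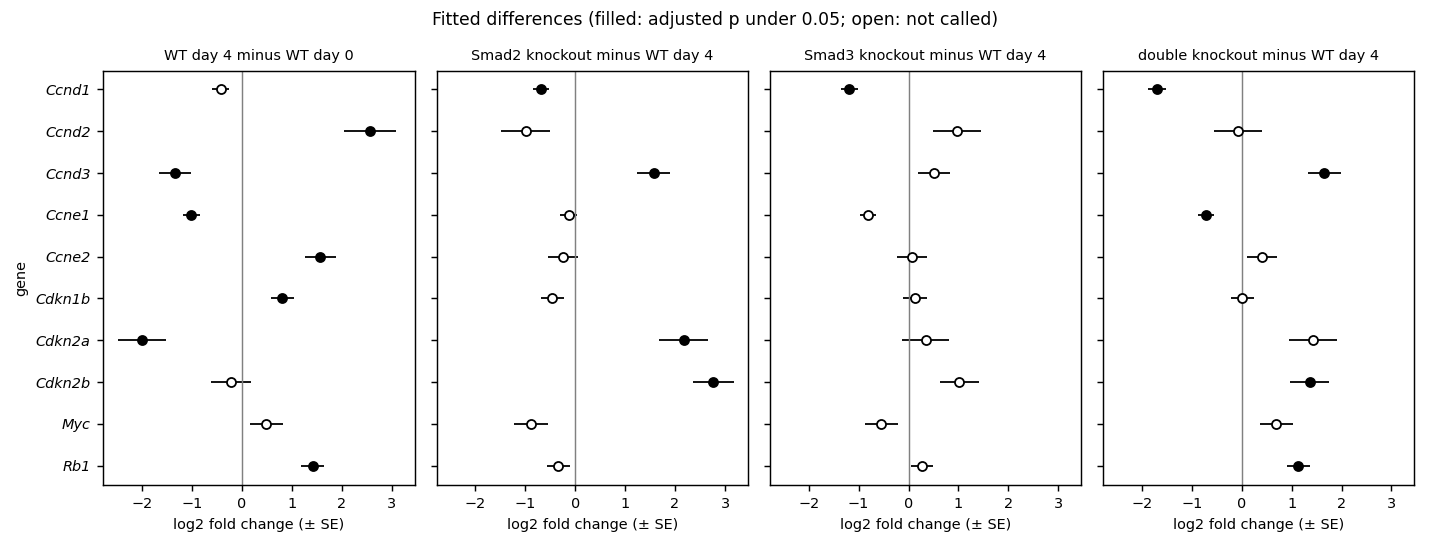
Log2 differences with their standard errors for the 10 genes in 4 comparisons (wild-type day 4 minus day 0, and each knockout minus wild-type day 4); filled points have an adjusted p under 0.05. Ccnd1 lies below 0 in all 3 knockouts, and Ccnd3 and Cdkn2b lie above 0 in each of them.

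Ccnd1 encodes cyclin D1 (ENSMUSG00000070348.5, mm10, chr7:144929931-144939925, minus strand). It was at 107 and 102 CPM at day 0, 70.8 and 84.4 in wild-type embryoid bodies, 53.0 and 43.4 in the Smad2 knockout, 34.7 and 33.6 in the Smad3 knockout, and 25.2 and 22.7 in the double knockout. The 5 groups did not overlap, and the level stepped down in that order. Compared with wild-type embryoid bodies, Ccnd1 fell by 0.69 on the log2 scale in the Smad2 knockout (SE 0.17, adjusted p = 0.0138), by 1.18 in the Smad3 knockout (SE 0.17, adjusted p = 0.0321) and by 1.70 in the double knockout (SE 0.17, adjusted p = 0.000246). The double knockout was lower than the Smad2 knockout by a log2 difference of -1.01 (adjusted p = 0.00242), whereas its difference from the Smad3 knockout (-0.51, adjusted p = 0.075) and the difference between wild-type day 4 and day 0 (-0.43, adjusted p = 0.0577) did not pass the test. The change in the double knockout was called in all 13 alternative analyses and without any 1 of the 10 libraries. The other calls were less stable. In the Smad2 knockout the call ended with an offset for transcript length (-0.21, adjusted p = 0.431), with only the compared groups in the fit (adjusted p = 0.146) and without Smad2 knockout replicate 2 (-0.55, adjusted p = 0.0694). In the Smad3 knockout it ended with only the compared groups (adjusted p = 0.212), on both TPM scales (adjusted p = 0.0534 and 0.0763), and without either library of day 0 (adjusted p = 0.0818 and 0.0825), of the Smad3 knockout (0.229 and 0.33) or of the double knockout (0.0843 and 0.0853). In TPM, Ccnd1 was at 29.4 and 32.5 in wild-type embryoid bodies, 13.7 and 9.97 in the Smad2 knockout, 15.02 and 13.97 in the Smad3 knockout and 11.4 and 10.4 in the double knockout. All 3 knockouts lay below the wild type on this scale too, but the Smad2 knockout no longer lay above the Smad3 knockout. LTO1, on the opposite strand, overlaps Ccnd1 by 1771 bases and held 360.6 to 819.6 counts. No source used here says whether the reads were counted by strand.

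Ccnd2 encodes cyclin D2 (ENSMUSG00000000184.12, chr6:127125162-127152193, minus strand). It was at 3.23 and 2.37 CPM at day 0 and at 17.6 and 15.6 in wild-type embryoid bodies, a log2 rise of 2.57 (SE 0.52, adjusted p = 0.00316). The Smad2 knockout libraries were at 13.3 and 3.35 CPM, the Smad3 knockout at 33.98 and 30.97, and the double knockout at 16.2 and 15.4. The Smad3 knockout was the high group and day 0 the low one. The Smad2 knockout libraries lay far apart, with replicate 2 near the day 0 level. The Smad2 knockout was lower than the Smad3 knockout by a log2 difference of -1.96 (SE 0.50, adjusted p = 0.0162), while no knockout passed the test against wild-type embryoid bodies (-0.99 with adjusted p = 0.138, 0.97 with 0.341 and -0.07 with 0.938). The Smad2 knockout was called lower with the name series as a block (-1.17, adjusted p = 0.0436), on both TPM scales (adjusted p = 0.0213 and 0.0301) and with no filter (0.00324). Without Smad2 knockout replicate 1, its difference from the wild type was -2.31 (adjusted p = 0.00406), and without replicate 2 it was -0.31 (adjusted p = 0.362). The difference between the Smad2 and Smad3 knockouts was -3.27 without Smad2 knockout replicate 1 and -1.28 without replicate 2, and without Smad3 knockout replicate 1 or 2 it was not called (adjusted p = 0.0729 and 0.0528). Length offsets ended the same call (adjusted p = 0.168, or 0.101 with GC content added), and a length offset also ended the rise from day 0 to day 4 (1.40, adjusted p = 0.0599). The summed primitive streak markers were also spread in the Smad2 knockout, at 14.9 to 204 CPM, and their part in the Ccnd2 values was not tested.

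Ccnd3 encodes cyclin D3 (ENSMUSG00000034165.16, chr17:47505051-47599691, plus strand). Its level was 178 and 199 CPM at day 0, 45.1 and 104 in wild-type embryoid bodies, 231 and 211 in the Smad2 knockout, 92.5 and 119 in the Smad3 knockout, and 239 and 229.8 in the double knockout. Both groups without Smad2 lay above all day 4 libraries that kept it. Ccnd3 fell by 1.34 from day 0 to day 4 in the wild type (SE 0.33, adjusted p = 0.00768). Against wild-type embryoid bodies it rose by 1.57 in the Smad2 knockout (SE 0.33, adjusted p = 0.00696) and by 1.66 in the double knockout (SE 0.33, adjusted p = 0.00654). The Smad3 knockout differed by 0.51 (adjusted p = 0.452). The wild-type day 4 libraries were far apart. Without wild-type day 4 replicate 2, these Ccnd3 differences became -2.06, 2.29 and 2.37, and that of the Smad3 knockout became 1.23 and was called (adjusted p = 0.0138). The rises in the Smad2 and double knockouts were called in all 13 alternatives and without any 1 library. Within the first and the second series of file names, which the labels do not describe as batches, the Smad2 knockout differed from the wild type by 2.35 and 1.02. The fall from day 0 to day 4 was not called on the TPM scale (-0.60, adjusted p = 0.16). In TPM, the Ccnd3 level was 36.9 and 82.3 in wild-type embryoid bodies, 117.4 and 96.8 in the Smad2 knockout, 79.6 and 101.1 in the Smad3 knockout, and 214.1 and 209.1 in the double knockout. On that scale the Smad2 and Smad3 knockouts overlapped and the double knockout stood alone. Between knockouts in CPM, Ccnd3 was higher in the Smad2 than in the Smad3 knockout (1.06, adjusted p = 0.0325) and in the double than in the Smad3 knockout (1.15, adjusted p = 0.0417). Without 1 library at a time, each of these calls was lost in 8 of 10 cases. The libraries high in Ccnd3, day 0 apart, were those high in trophoblast markers. The 8 naive pluripotency genes summed to 1800 to 1930 CPM at day 0. Their sum was 298 to 712 in the Smad2 knockout and 421 to 550 in the double knockout. It was 223 to 264 in wild-type embryoid bodies and 139 to 147 in the Smad3 knockout. Called higher were 5 of the 8 in the Smad2, 0 in the Smad3 and 3 in the double knockout (15.4%, 0.431% and 10.8% of all genes). The part of either kind of cell was not tested.

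The 300 bases around both annotated starts of Ccnd3 are shown because this D cyclin rose in both groups without Smad2. Those of Cdkn2a and Cdkn2b are shown further below. RefSeq (GRCm38.p6) gave such windows, most of each upstream of the start, for 5 of the 10 genes: Ccnd3, Ccne1, Cdkn1b, Cdkn2a and Cdkn2b. Each was searched on both strands for CAGAC (the SMAD box), AATCCAC (a FOXH1 site), CACGTG (the E-box of MYC and MAX), and TTCCCGC and TTGGCGC (E2F sites). Capitals mark matches, and a match is a description of letters, not a site. The 2 Ccnd3 windows are chr17:47504801-47505100 and chr17:47593217-47593516, both on the plus strand.
Ccnd3 start 1: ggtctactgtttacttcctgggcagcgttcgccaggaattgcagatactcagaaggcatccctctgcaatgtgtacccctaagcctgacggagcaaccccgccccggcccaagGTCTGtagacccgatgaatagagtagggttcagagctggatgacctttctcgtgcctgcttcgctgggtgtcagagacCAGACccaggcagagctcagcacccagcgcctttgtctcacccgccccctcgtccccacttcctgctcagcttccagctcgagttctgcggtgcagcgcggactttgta
Ccnd3 start 2: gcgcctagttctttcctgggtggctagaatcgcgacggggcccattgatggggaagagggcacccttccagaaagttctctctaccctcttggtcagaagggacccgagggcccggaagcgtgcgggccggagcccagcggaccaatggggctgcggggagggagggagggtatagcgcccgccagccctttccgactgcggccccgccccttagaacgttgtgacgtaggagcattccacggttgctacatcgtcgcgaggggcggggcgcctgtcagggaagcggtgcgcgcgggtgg
The first holds CAGAC on either strand, at -137 and -59 from the start, and the second holds none of the motifs. CAGAC is common, with a match in 49.6% of all 32851 windows, against 2.49% for AATCCAC, 7.15% for CACGTG, 4.6% for TTCCCGC and 2.45% for TTGGCGC. The windows of Ccne1 and Cdkn1b are not printed.

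The make-up of the D cyclins was compared in TPM, which allows levels of different genes to be set side by side. Ccnd3 made up 77.9% ± 1.91 (SD, n = 2) of D cyclin TPM at day 0, 60.9% ± 12.2 in wild-type embryoid bodies, 89.2% ± 1.63 in the Smad2 knockout, 78.7% ± 3.04 in the Smad3 knockout and 93.0% ± 0.354 in the double knockout. Cyclin D3 RNA was the largest share in every library. The Ccnd1 share was 34.5% ± 9.97 in wild-type embryoid bodies and 4.79% ± 0.205 in the double knockout. The ratio of Ccnd3 to Ccnd1 within a library, which a common scaling of the library cannot move, was 3.33 and 3.91 at day 0, 1.26 and 2.53 in wild-type embryoid bodies, 8.60 and 9.71 in the Smad2 knockout, 5.30 and 7.24 in the Smad3 knockout, and 18.8 and 20.0 in the double knockout. The ratio did not overlap between groups, with wild-type embryoid bodies lowest and the double knockout highest. The Ccnd2 share ranged from 0.398% at day 0 to 8.50% in the Smad3 knockout. Summed D cyclin TPM averaged 109.6 ± 24.2 at day 0 and 94.6 ± 33.9 in wild-type embryoid bodies. It averaged 120.3 ± 18.6 in the Smad2 knockout, 114.5 ± 14.9 in the Smad3 knockout and 227.7 ± 4.60 in the double knockout. Shares and ratios were not tested.

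**Figure D3:**
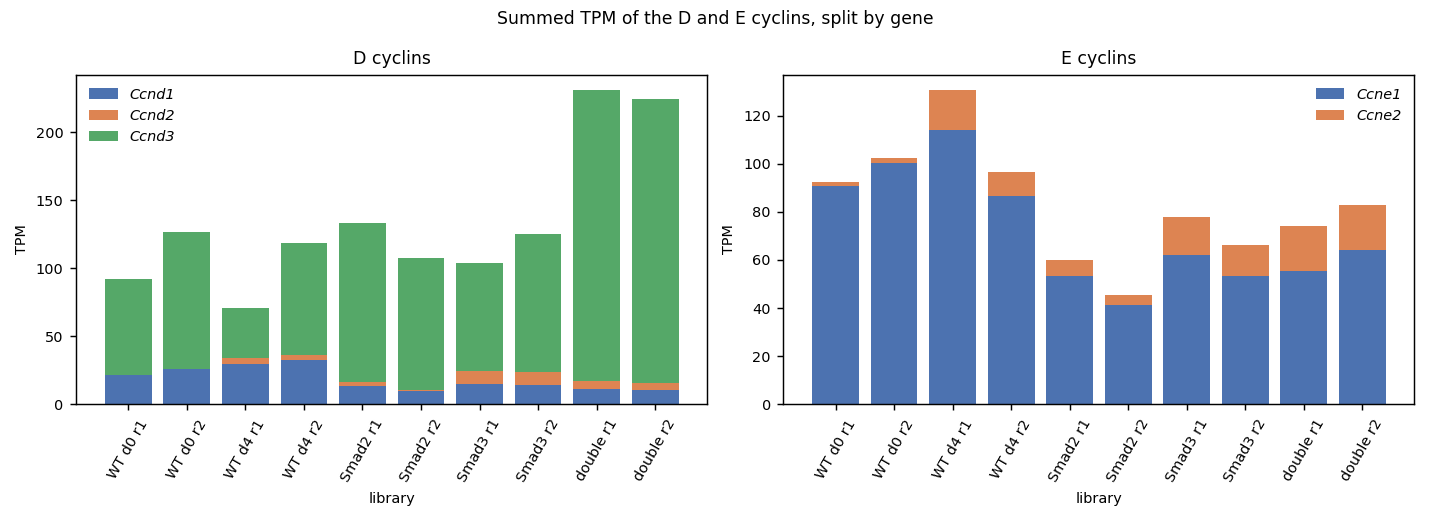
Summed TPM of the D cyclins (Ccnd1, Ccnd2, Ccnd3) and of the E cyclins (Ccne1, Ccne2) in each library, stacked by gene on linear axes from 0. Ccnd3 fills most of the D cyclin bars, up to 93.0% on average in the double knockout, and Ccne2 grows from 2.00% of the E cyclin bars at day 0 to 24.0% in the double knockout.

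Ccne1 encodes cyclin E1, the main cyclin E of these libraries (ENSMUSG00000002068.16, chr7:38097984-38107534, minus strand). It was at 232 and 202 CPM at day 0, 110.3 and 105 in wild-type embryoid bodies, 105 and 90.6 in the Smad2 knockout, 63.2 and 59.5 in the Smad3 knockout, and 60.4 and 70.0 in the double knockout. Day 0 stood above all day 4 libraries, and the Smad3 and double knockouts overlapped each other below the rest. Ccne1 fell by 1.01 from day 0 to day 4 (SE 0.16, adjusted p = 0.00099) and by 0.72 in the double knockout against wild-type embryoid bodies (SE 0.16, adjusted p = 0.012). The Smad3 knockout differed from the wild type by -0.81 (adjusted p = 0.0651) and the Smad2 knockout by -0.13 (adjusted p = 0.538). The Smad3 knockout value was called in 5 of the 13 alternatives, DESeq2 among them (adjusted p = 0.00804), and without wild-type day 4 replicate 2 (adjusted p = 0.0214). The call in the double knockout ended without either of its own libraries (adjusted p = 0.123 and 0.0523) and with only the compared groups (0.0834). The values of Ccne1 also depended on the scale. In TPM it was at 90.8 and 100.4 at day 0, 114.1 and 86.6 in wild-type embryoid bodies, 53.3 and 41.4 in the Smad2 knockout, 62.0 and 53.5 in the Smad3 knockout, and 55.3 and 64.3 in the double knockout. There, day 0 and wild-type day 4 overlapped (log2 difference of TPM plus 1 of 0.057, adjusted p = 0.833), and the Smad2 knockout was lower than the wild type by -1.07 (adjusted p = 0.00329). All genes shifted on this scale, by a median of 0.63 from day 0 to day 4 and -0.51 in the Smad2 knockout. Relative to those medians, Ccne1 differed by -0.57 and -0.56.

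Ccne2 encodes cyclin E2 (ENSMUSG00000028212.16, chr4:11191351-11204779, plus strand). It was at 6.84 and 6.14 CPM at day 0, 25.0 and 13.5 in wild-type embryoid bodies, 19.4 and 13.1 in the Smad2 knockout, 21.8 and 18.3 in the Smad3 knockout, and 24.4 and 26.6 in the double knockout. Day 0 lay below every embryoid body library, and the day 4 groups overlapped except that the double knockout lay above both other knockouts. The rise of 1.57 from day 0 to day 4 in the wild type (SE 0.31, adjusted p = 0.0028) was called in all 13 alternatives and without any 1 library, and in CPM no knockout differed from wild-type embryoid bodies past the test (adjusted p = 0.545, 0.947 and 0.37). In TPM plus 1, Ccne2 was lower in the Smad2 knockout (-1.17, adjusted p = 0.00915, and -0.66 relative to the median of all genes). Ints8, on the opposite strand, shares 5622 bases of gene span with Ccne2 and held 1622 to 4518 counts. Within a library, the TPM ratio of Ccne1 to Ccne2 was 51.9 and 46.5 at day 0, 6.91 and 8.83 in wild-type embryoid bodies, 8.11 and 10.6 in the Smad2 knockout, 3.90 and 4.19 in the Smad3 knockout, and 2.92 and 3.44 in the double knockout. Cyclin E1 outweighed cyclin E2 in all 10 libraries, by far the most at day 0. The Ccne1 to Ccne2 ratio in the Smad3 and double knockouts lay below those of the wild type and the Smad2 knockout.

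Cdkn1b encodes p27Kip1, the CIP/KIP inhibitor of CDK2 (ENSMUSG00000003031.14, chr6:134920401-134925513, plus strand). Its level was 33.2 and 34.3 CPM at day 0, 67.1 and 50.8 in wild-type embryoid bodies, 52.3 and 33.3 in the Smad2 knockout, 69.9 and 59.0 in the Smad3 knockout, and 60.7 and 57.9 in the double knockout. Cdkn1b rose by 0.81 from day 0 to day 4 (SE 0.23, adjusted p = 0.0177). Smad2 knockout replicate 2 lay at the day 0 level, and the other day 4 libraries were higher. In CPM no knockout differed from the wild type past the test (-0.46, 0.13 and 0.01, with adjusted p = 0.149, 0.826 and 0.985). In TPM plus 1, Cdkn1b was lower in the Smad2 knockout (adjusted p = 0.0275), by -0.49 relative to the median of all genes. The call from day 0 to day 4 ended with a length offset (0.66, adjusted p = 0.0654), with length and GC offsets (0.24, adjusted p = 0.317), with only the compared groups (adjusted p = 0.052), and without either day 0 library (0.0906 and 0.0706) or wild-type day 4 replicate 1 (0.105).

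Cdkn2a (ENSMUSG00000044303.6, chr4:89274471-89294653, minus strand) encodes both the INK4 inhibitor p16Ink4a and, from another first exon, the MDM2 inhibitor p19Arf. A gene-level count cannot separate them. It was at 10.3 and 9.16 CPM at day 0, 1.17 and 3.66 in wild-type embryoid bodies, 13.1 and 8.60 in the Smad2 knockout, 2.49 and 3.63 in the Smad3 knockout, and 7.50 and 5.43 in the double knockout. Wild-type and Smad3 knockout embryoid bodies overlapped at the low end, and both groups without Smad2 lay above them, the Smad2 knockout overlapping the day 0 libraries. Cdkn2a fell by 2.01 from day 0 to day 4 in the wild type (SE 0.49, adjusted p = 0.00744) and rose by 2.17 in the Smad2 knockout against wild-type embryoid bodies (SE 0.49, adjusted p = 0.00934). The double knockout difference of 1.42 did not pass (SE 0.48, adjusted p = 0.0602). It passed in 10 of the 13 alternatives, DESeq2 among them (1.48, adjusted p = 0.00665), and without wild-type day 4 replicate 2 (2.46, adjusted p = 0.0029). The Smad3 knockout differed by 0.34 (adjusted p = 0.767). Without wild-type day 4 replicate 2, the fall from day 0 was -3.05 and the rise in the Smad2 knockout 3.22. Without Smad2 knockout replicate 1 the latter was 1.83 and no longer called (adjusted p = 0.0515). A length offset lowered it to 1.39 (adjusted p = 0.043) and ended the call from day 0 to day 4 (-1.05, adjusted p = 0.0614). Length and GC offsets lowered the Smad2 knockout difference to 1.00 (adjusted p = 0.0182). Within the first and second name series it was 3.44 and 1.22. The lowest Cdkn2a library held 51 counts.

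Cdkn2b, next to Cdkn2a on chromosome 4 (ENSMUSG00000073802.4, chr4:89306299-89311039, minus strand), encodes the INK4 inhibitor p15Ink4b. It was at 2.15 and 2.03 CPM at day 0, 1.85 and 1.74 in wild-type embryoid bodies, 16.6 and 7.83 in the Smad2 knockout, 2.82 and 4.47 in the Smad3 knockout, and 5.42 and 3.78 in the double knockout. The Smad2 knockout lay above every other library in CPM (in TPM, 12.5 and 5.42, it overlapped the other knockouts), and all 3 knockouts lay above both wild-type groups. Cdkn2b rose by 2.76 in the Smad2 knockout (SE 0.41, adjusted p = 0.00201) and by 1.36 in the double knockout (SE 0.40, adjusted p = 0.0362). The Smad3 knockout differed by 1.02 (adjusted p = 0.239), and day 4 did not differ from day 0 past the test in the wild type (-0.22, adjusted p = 0.666). The double knockout was lower than the Smad2 knockout by a log2 difference of -1.41 (adjusted p = 0.0191). The rise in the Smad2 knockout was called in all 13 alternatives and without any 1 library. It was 2.12 without Smad2 knockout replicate 1 (adjusted p = 0.00954), 1.91 with length and GC offsets and 1.58 on the log2 scale of TPM plus 1. The call in the double knockout ended without any 1 of 6 libraries: either of day 0 (adjusted p = 0.0597 and 0.0599), of wild-type day 4 (0.0699 and 0.0831) or of the double knockout (0.207 and 0.0695). It also ended with the name series as a block (0.0536) and with length and GC offsets (0.0508). The difference between the double and Smad2 knockouts was lost without Smad2 knockout replicate 1 (-0.77, adjusted p = 0.138), without either double knockout library (0.0547 and 0.132), with a length offset (-0.88, adjusted p = 0.117) and on the TPM scale (adjusted p = 0.349). Trophoblast markers were high in the Smad2 and double knockouts alike, whereas Cdkn2b was higher in the former, and their part was not tested. The 5 fibroblast feeder markers summed to 50.5 to 52.2 CPM in the Smad2 knockout, 15 to 22.4 in wild-type embryoid bodies, 28.8 to 34.2 in the Smad3 knockout and 22.3 to 25.1 in the double knockout, with none at 0. Of these 5, 4 were called higher and 1 lower in the Smad2 knockout, and 3 were lower in the interaction. Their part in the Cdkn2b values was not tested either.

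Cdkn2a, whose count mixes p16Ink4a and p19Arf, and Cdkn2b were both higher in the Smad2 knockout. Their windows from RefSeq (GRCm38.p6) are printed to show the sequence at the starts of these neighbours, all on the minus strand, 5′ to 3′. Cdkn2a start 1 lies at chr4:89294570-89294869, Cdkn2a start 2 at chr4:89282143-89282442 and the Cdkn2b start at chr4:89310983-89311282. Capitals mark the motifs searched.
Cdkn2a start 1: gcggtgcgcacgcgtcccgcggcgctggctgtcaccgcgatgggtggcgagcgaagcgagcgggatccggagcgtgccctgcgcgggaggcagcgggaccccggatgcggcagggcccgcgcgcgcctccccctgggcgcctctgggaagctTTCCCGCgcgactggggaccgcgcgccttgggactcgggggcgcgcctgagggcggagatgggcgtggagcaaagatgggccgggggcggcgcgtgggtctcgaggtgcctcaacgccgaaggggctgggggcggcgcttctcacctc
Cdkn2a start 2: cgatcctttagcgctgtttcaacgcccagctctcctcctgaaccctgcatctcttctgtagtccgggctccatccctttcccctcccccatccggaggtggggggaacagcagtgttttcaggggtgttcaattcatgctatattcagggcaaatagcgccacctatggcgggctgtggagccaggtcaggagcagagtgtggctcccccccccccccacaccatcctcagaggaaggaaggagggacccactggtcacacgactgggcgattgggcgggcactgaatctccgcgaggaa
Cdkn2b start: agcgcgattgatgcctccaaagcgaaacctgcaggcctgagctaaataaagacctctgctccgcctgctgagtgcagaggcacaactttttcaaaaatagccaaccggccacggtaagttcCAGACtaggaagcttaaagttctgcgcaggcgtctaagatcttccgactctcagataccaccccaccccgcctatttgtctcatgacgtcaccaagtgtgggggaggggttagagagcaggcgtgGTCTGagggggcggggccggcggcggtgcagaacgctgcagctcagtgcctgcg
The first Cdkn2a window holds TTCCCGC at -98 from the start, and the second holds none of the motifs. Which Cdkn2a start serves p16Ink4a and which p19Arf is not given with the windows. The Cdkn2b window holds CAGAC on either strand, at -129 and -4. Of the neighbouring genes, Mtap differed by 0.03 in the Smad2 knockout (adjusted p = 0.91) and Klhl9 by -0.40 (adjusted p = 0.311), and Dmrta1 fell by 2.93 (adjusted p = 0.00472). The other genes within 5 Mb of Cdkn2b had a median log2 difference of -0.40 in the Smad2 knockout.

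Myc encodes the MYC transcription factor (ENSMUSG00000022346.15, chr15:61985391-61990374, plus strand). It was at 14.9 and 17.7 CPM at day 0, 16.1 and 29.7 in wild-type embryoid bodies, 15.5 and 9.20 in the Smad2 knockout, 14.0 and 17.2 in the Smad3 knockout, and 41.2 and 32.6 in the double knockout. Both double knockout libraries lay above all others. The Smad2 knockout lay below both wild-type day 4 libraries without overlap, by a small margin from the lower of them, while the Smad3 knockout overlapped the wild type at both days. No comparison with wild-type embryoid bodies passed, nor did day 4 against day 0 in the wild type (0.49, adjusted p = 0.242). The Smad2, Smad3 and double knockouts differed from wild-type embryoid bodies by -0.89 (adjusted p = 0.0645), -0.55 (0.428) and 0.69 (0.167). Against day 0, Myc was called higher in the double knockout (1.18, adjusted p = 0.0146). The Smad2 and Smad3 knockouts did not differ from day 0 past the test (-0.40 with adjusted p = 0.425, and -0.06 with 0.881). The double knockout was higher than the Smad2 knockout by 1.58 (SE 0.34, adjusted p = 0.00652), a call kept in all 13 alternatives and without any 1 library, and higher than the Smad3 knockout by 1.24 (SE 0.33, adjusted p = 0.0351). The latter call was lost without either library of day 0 (adjusted p = 0.0602 and 0.0605), of the Smad3 knockout (0.208 and 0.125) or of the double knockout (0.195 and 0.0982). The Myc tests against wild-type embryoid bodies depended on single libraries. Without wild-type day 4 replicate 2 the double knockout was called higher (1.20, adjusted p = 0.0222), and the Smad2 knockout was called lower without wild-type day 4 replicate 1 or Smad2 knockout replicate 1 and in 7 of the 13 alternatives, DESeq2 among them (adjusted p = 0.0331).

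Rb1 encodes the retinoblastoma protein (ENSMUSG00000022105.6, chr14:73183673-73325822, minus strand). It was at 14.3 and 14.3 CPM at day 0, 46.8 and 29.6 in wild-type embryoid bodies, 32.3 and 28.0 in the Smad2 knockout, 51.5 and 40.6 in the Smad3 knockout, and 86.3 and 81.0 in the double knockout. Day 0 was the low group and the double knockout the high one, with no overlap with the rest. Rb1 rose by 1.42 from day 0 to day 4 in the wild type (SE 0.24, adjusted p = 0.00115) and by 1.13 in the double knockout against wild-type embryoid bodies (SE 0.23, adjusted p = 0.00752). It was higher in the double than in the Smad2 knockout by 1.47 (adjusted p = 0.00184), called in all 13 alternatives and without any 1 library, and than in the Smad3 knockout by 0.86 (adjusted p = 0.0337). The single knockouts did not differ from the wild type past the test (-0.34 with adjusted p = 0.271, and 0.27 with 0.589). With offsets for length and GC content, the Rb1 rise from day 0 to day 4 was 0.31 and not called (adjusted p = 0.0694), and the Smad2 knockout came out higher than the wild type (0.51, adjusted p = 0.0184). The transcript length that RSEM assigned to Rb1 ran from 2106 bases in Smad2 knockout replicate 1 to 4594 in day 0 replicate 2. In TPM, Rb1 was at 20.38 and 12.01 in wild-type embryoid bodies and at 36.4 and 35.9 in the double knockout, and that call was lost (adjusted p = 0.0618 and 0.0739), as it was without double knockout replicate 1 (1.08, adjusted p = 0.0568). The difference from the Smad3 knockout was lost on the TPM scales (adjusted p = 0.177 and 0.21) and in 6 of the 10 fits without 1 library (0.0607 to 0.257). Rcbtb2, on the opposite strand, lies over 24171 bases of Rb1 and held 770.0 to 4403 counts, with 2390 and 1893 in the double knockout.

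The order of the 5 groups differed between genes. From low to high, Ccnd1 ran from the double knockout through the Smad3 knockout, the Smad2 knockout and wild-type embryoid bodies to day 0. Its neighbours differed past the test between the Smad3 and Smad2 knockouts (adjusted p = 0.0497, lost in 10 of 13 alternatives) and between the Smad2 knockout and the wild type. Ccne1 ran from the Smad3 knockout through the double and Smad2 knockouts and wild-type embryoid bodies to day 0, and the steps from the double to the Smad2 knockout and from wild-type day 4 to day 0 passed. Rb1 and Ccne2 were lowest at day 0, then in the Smad2 knockout, and that step passed for both (adjusted p = 0.0118 and 0.0158). Rb1 went on through wild-type and Smad3 knockout embryoid bodies to the double knockout, whose last step passed (adjusted p = 0.0337). For Cdkn2b, wild-type day 4, day 0, the Smad3 knockout and the double knockout did not differ from their neighbours, and the step up to the Smad2 knockout passed. No neighbouring groups of Ccnd2, Ccnd3, Cdkn1b, Cdkn2a or Myc differed past the test.

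Whether loss of Smad2 acted alike with and without Smad3 was tested as an interaction, the double minus the Smad3 knockout set against the Smad2 knockout minus wild type. Of the 10 genes, 3 were called (2 higher, 1 lower), against 18.9% of all genes tested (11.3% higher, 7.52% lower). The interaction of Cdkn2b was -2.43 (SE 0.55, adjusted p = 0.02). Cdkn2b averaged 1.79 ± 0.0826 CPM in wild-type embryoid bodies and 12.2 ± 6.20 in the Smad2 knockout, but 3.643 ± 1.16 in the Smad3 knockout and 4.600 ± 1.16 in the double knockout (SD, n = 2). The interaction was 2.13 for Myc (SE 0.47, adjusted p = 0.018) and 1.20 for Rb1 (SE 0.33, adjusted p = 0.0338). Each of the 3 calls was lost when any of several single libraries was left out: Cdkn2b without Smad2 knockout replicate 1 (adjusted p = 0.0515), Smad3 knockout replicate 2 (0.091) or either double knockout library (0.0556 and 0.0873), Myc without any Smad3 or double knockout library (0.056 to 0.0753), and Rb1 in 9 of 10 cases (0.056 to 0.148). Between the single knockouts, 6 of the 10 genes differed (33.6% of all genes called, 15.7% higher and 17.9% lower): Ccnd1, Ccnd3, Ccne1, Cdkn2a and Cdkn2b were higher in the Smad2 knockout and Ccnd2 lower. Between the double and Smad2 knockouts 5 differed (39.6% called, 20.5% higher and 19.1% lower): Myc and Rb1 were higher in the double knockout, and Ccnd1, Ccne1 and Cdkn2b lower. On the scale of TPM plus 1, Ccnd1 differed by -0.09 between the double and Smad2 knockouts (adjusted p = 0.728) and Ccne1 by 0.34. There, the differences between the Smad2 and Smad3 knockouts were -0.29 for Ccnd1 and -0.29 for Ccne1, the other way round from CPM. Between the double and Smad3 knockouts 3 differed (15.5% called, 7.53% higher and 8.01% lower), with Ccnd3, Myc and Rb1 higher in the double knockout. Without Smad3 knockout replicate 1 none of the members was called between the single knockouts, and without replicate 2 only 1 was.

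**Figure D4:**
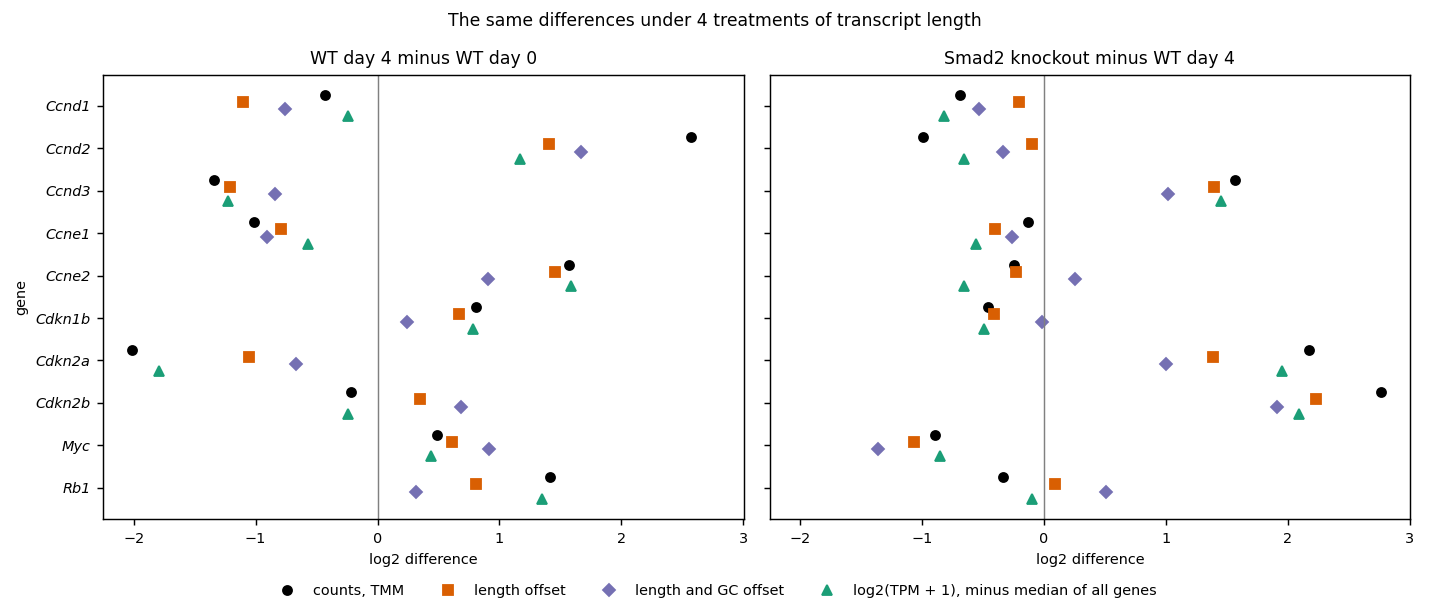
Log2 differences of the 10 genes from wild-type day 0 to day 4 and from wild-type day 4 to the Smad2 knockout on 4 scales: counts after TMM, counts with a length offset, counts with length and GC offsets, and TPM plus 1 with the median of all genes subtracted. Cdkn2b stays above 0 in the Smad2 knockout on all 4 scales, and Rb1 changes side there, with 0.51 under the length and GC offsets against -0.34 after TMM.

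Other genes of the pathway were taken from 11 lists that named 82 genes, of which 81 were matched and tested. From day 0 to day 4 in the wild type 14 of the 81 were higher and 25 lower, where 28.9% and 23.2% of all genes were called. In the Smad2 knockout 9 were higher and 17 lower (15.4% and 20.1% of all genes), in the Smad3 knockout 1 and 0 (0.431% and 0.123%), and in the double knockout 7 and 24 (10.8% and 12.3%). The other CDK inhibitors were Cdkn1a, Cdkn1c, Cdkn2c and Cdkn2d. Of these, Cdkn2c was low in every group, from 0.255 CPM on average in wild-type embryoid bodies to 1.45 in the double knockout. All 4 fell from day 0 to day 4, Cdkn1a (p21Cip1) by 0.83 (adjusted p = 0.0117) and Cdkn2d (p19Ink4d) by 1.36 (adjusted p = 0.00381). In the Smad2 knockout 3 of them rose, Cdkn1a by 1.08 (adjusted p = 0.00659) and Cdkn2d by 1.70 (adjusted p = 0.00311). In TPM, Cdkn1a averaged 51.4 ± 15.5 there against 40.5 ± 9.23 in wild-type embryoid bodies (SD, n = 2). Cdkn2d averaged 15.3 ± 1.85 against 7.48 ± 2.69 TPM. In the double knockout all 4 rose, Cdkn1c (p57Kip2) by 2.02 (adjusted p = 0.00386) and Cdkn1a by 1.11 (adjusted p = 0.00671). The falls from day 0 depended on the scale, with 1 of 4 called when scaled by library totals and 0 of 4 on the TPM scales, and 2 of 4 were called without either day 0 library. In the double knockout, 2 were called without its replicate 1 and 3 without its replicate 2. In the Smad2 knockout, 2 were called without its replicate 1 or without wild-type day 4 replicate 2. The median log2 difference of these 4 genes was -1.27 from day 0 to day 4, 1.39 without Smad2 and 1.57 without both factors, against 0.10, -0.01 and -0.05 for all genes tested.

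Among the kinases that D and E cyclins bind (Cdk2, Cdk4 and Cdk6), Cdk6 fell by 3.36 in the double knockout (SE 0.26, adjusted p = 6.19e-05), from 31.1 to 3.02 CPM on average, with an interaction of -2.15 (adjusted p = 0.00716). Of the other pocket proteins, Rbl1 (p107) fell by 0.95 in the Smad2 knockout (adjusted p = 0.0164; lost without either of its libraries, 0.0751 and 0.0555, or wild-type day 4 replicate 1, 0.104), and Rbl2 (p130) was called in no comparison with the wild type. Of 10 E2F and DP factors, 4 were higher and 2 lower at day 4, near the 52.1% of all genes called: E2f3 rose by 1.68 (adjusted p = 0.000143) and E2f7, a repressor, by 0.88 (adjusted p = 0.00134), while E2f1 fell by 1.62 (adjusted p = 0.000571). In the Smad2 knockout E2f1 rose by 0.95 (adjusted p = 0.0125) and 5 fell (20.1% of all genes were lower), among them E2f3 (-1.12, adjusted p = 0.00251) and the repressors E2f7 (-1.09, adjusted p = 0.00149) and E2f8 (-1.07, adjusted p = 0.0059). In TPM, E2f1 averaged 18.3 ± 0.163 there against 15.4 ± 4.51 in wild-type embryoid bodies (SD, n = 2). The rise of E2f1 was lost without Smad2 knockout replicate 2 (adjusted p = 0.0536). In the double knockout E2f8 rose by 0.69 (adjusted p = 0.0425) and 3 fell, E2f3 among them (-0.60, adjusted p = 0.0351). Both E2f8 and E2f3 lost their call there without any 1 library of day 0, of the Smad3 knockout or of the double knockout, or without wild-type day 4 replicate 1 (adjusted p up to 0.206 and 0.207). Of 16 E2F target genes of S phase entry, 8 fell from day 0 to day 4 (23.2% of all genes were lower), with thymidine kinase Tk1 down by 1.87 (adjusted p = 0.000441), and none rose. On the scale of TPM plus 1, 4 were called higher and 2 lower, where 7098 and 1487 of all 14328 genes were. In the double knockout 8 of the 16 fell (12.3% of all genes were lower), among them thymidylate synthase Tyms (-0.97, adjusted p = 0.00498) and the replication helicase subunit Mcm4 (-0.87, adjusted p = 0.013). Their median was -0.62, against -0.05 for all genes tested. Without double knockout replicate 1 none of these E2F target genes of S phase entry was called, without replicate 2 there were 2, and with only the compared groups there were 3.

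The MYC and MAX network held 10 other genes. Mycl rose by 2.05 from day 0 to day 4 (adjusted p = 0.000141) and fell in the Smad2 knockout (-1.32, adjusted p = 0.00265) and the double knockout (-2.25, adjusted p = 0.000186). Mycn, the MYC relative abundant in embryonic stem cells, fell by 1.64 in the double knockout (adjusted p = 0.00263), from 106 ± 28.3 to 34.1 ± 9.48 CPM (SD, n = 2), and by 0.79 in the Smad2 knockout (adjusted p = 0.0437). The latter call was lost without any 1 library of day 0, of the Smad2 knockout or of the Smad3 knockout, or without wild-type day 4 replicate 2 (adjusted p up to 0.206). Mxd1, a MAX partner that opposes MYC, rose by 1.57 in the double knockout (adjusted p = 0.00199). Of 12 MYC target genes of growth, 6 fell in the double knockout (12.3% of all genes were lower), among them ornithine decarboxylase Odc1 (-1.06, adjusted p = 0.00234), Nolc1 (-0.77, adjusted p = 0.0311) and nucleolin Ncl (-0.76, adjusted p = 0.0479). Their median was -0.70, against -0.05 for all genes tested. The number of these MYC target genes of growth called fell to 1 without either double knockout library or with only the compared groups, to 2 without either library of day 0 or of the Smad3 knockout and on both TPM scales, and was 10 with no filter. From day 0 to day 4, 4 of these 12 fell (23.2% of all genes were lower), fibrillarin Fbl by 1.13 (adjusted p = 0.00272). On the scale of TPM plus 1, none of the 12 were lower and 6 higher, where 1487 and 7098 of all 14328 genes were. In the Smad2 knockout Fbl rose by 1.04 (adjusted p = 0.0076), and on that scale 8 of the 12 were lower, as were 6168 of the 14328 genes.

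Of 7 tested ubiquitin ligase parts that act on cyclin E, p27 or MYC, Fbxw7, whose product marks cyclin E and MYC for breakdown, rose by 0.81 from day 0 to day 4 (adjusted p = 0.00507) and fell by 0.75 in the Smad2 knockout (adjusted p = 0.0122; 0.059 without its replicate 2). Cks1b, a partner of SKP2 in p27 breakdown, moved the other way (-0.84 with adjusted p = 0.00476, and 1.06 with adjusted p = 0.00352). Of 10 Polycomb genes known for repression of Cdkn2a, Ezh2 (-0.49, adjusted p = 0.0466) and Eed (-0.69, adjusted p = 0.0108) fell from day 0 to day 4, and Suz12 (1.01, adjusted p = 0.0101) and Bmi1 (1.70, adjusted p = 0.00434) rose. The call of Ezh2 was lost without any 1 library but wild-type day 4 replicate 1 (adjusted p up to 0.177), that of Eed without day 0 replicate 1 (0.0593), and that of Suz12 without day 0 replicate 1 or wild-type day 4 replicate 1 (0.0775 and 0.0637). Against wild-type embryoid bodies, Jarid2 was called lower in the Smad2 knockout and Pcgf2 in the double knockout (20.1% and 12.3% of all genes were lower). Both calls were lost in some fits without 1 library. Cbx8 was higher in all 3 knockouts, by 1.91, 2.54 and 2.97 (adjusted p = 0.00886, 0.0408 and 0.00134), and was the only one of the 81 genes called in the Smad3 knockout. That call of Cbx8 was lost without any 1 library of day 0, of the Smad3 knockout or of the double knockout, or without wild-type day 4 replicate 1 (adjusted p from 0.0928 to 0.346). Its level was at most 3.98 CPM on average. Of the 4 FOXO genes, whose products activate Cdkn1b, Foxo1, Foxo3 and Foxo4 rose from day 0 to day 4 (1.27, 1.10 and 1.42, with adjusted p = 0.000335, 0.00184 and 0.00108), as Cdkn1b did. Foxo1 fell in the Smad2 knockout (-1.06, adjusted p = 0.00225) and the double knockout (-0.92, adjusted p = 0.00374, and 0.0509 without double knockout replicate 2), where Cdkn1b was not called. Of Cdc25a, Ccna2 and Ccna1, none was called in any knockout against the wild type.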

How the data were processed

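RNA was extracted with a spin kit, per the labels' protocols. The authors deposited 1 RSEM gene table per library, with expected counts, TPM and transcript length, per the file headers. The submitters' processing notes list FastQC 0.11.5, Bowtie2, STAR, RSEM, HOMER and mm10 without roles. No source used here gives the annotation version or the use of strand. The deposited expected counts were rounded to whole numbers. The deposited TPM values were used for comparisons between genes and, as log2(TPM + 1) and log2(TPM + 0.1), for alternatives with limma 3.58.1 on the 14328 genes that averaged 1 TPM or more. Of 53379 identifiers, 50604 matched GENCODE M21 with the version, 2670 without it, and 105 did not match.

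Counts of all 5 groups entered 1 fit with edgeR 4.0.16 (R 4.3.3): filterByExpr (19470 genes), TMM scaling, quasi-likelihood F tests and Benjamini-Hochberg adjustment over all genes tested. A gene was called at an adjusted p under 0.05. The fit had 5 residual degrees of freedom and a common biological coefficient of variation of 0.248. CPM are counts scaled to the library total after TMM. Log2 CPM values, used within name series, in the offsets and for profiles, had a prior count of 2. Fitted log2 differences kept the edgeR default. Depth was 35733249 to 53672980 expected counts. Group values are means ± SD of 2 libraries. The 13 alternative analyses were other size factors (RLE, library totals), no filter or a stricter one (at least 1 CPM in at least 2 libraries), 3 blocks, length and GC offsets (mgcv 1.9.3), DESeq2 1.42.0, 2 TPM scales and the compared groups alone; each library was also left out in turn. The crossed block and the length and GC offset were chosen after seeing the data. The fitting steps were tested on simulated data.

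The 10 members are all described. Other pathway genes came from 11 lists, with up to 3 called genes of at least 5 CPM named per list and comparison, those with the largest change. Cbx8 falls below that level and was named after its values were seen. Members and lists were chosen with earlier results of these data known. RefSeq GRCm38.p6 supplied the promoter windows.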

Additional observations from a re-analysis of the deposited data

Results flagged for a closer look

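The effect of Smad2 loss differed with and without Smad3 for 3 genes, by a test of the interaction in the fit across all genes (edgeR quasi-likelihood test, Benjamini-Hochberg adjusted p). For Cdkn2b it was -2.43 (SE 0.55, adjusted p = 0.02). The Smad2 knockout stood at 16.6 and 7.83 CPM against 1.85 and 1.74 in the wild type, while the double knockout stood at 5.42 and 3.78 against 2.82 and 4.47 in the Smad3 knockout. The Cdkn2b value was -1.79 without Smad2 knockout replicate 1 (adjusted p = 0.0515), -1.86 with a length offset (adjusted p = 0.0704), -1.56 with length and GC offsets (adjusted p = 0.0892) and -1.21 on the scale of TPM plus 1 (adjusted p = 0.0793).

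For Myc the interaction was 2.13 (SE 0.47, adjusted p = 0.018), with 15.5 and 9.20 CPM in the Smad2 knockout against 16.1 and 29.7 in the wild type, and 41.2 and 32.6 in the double knockout against 14.0 and 17.2 in the Smad3 knockout. The Myc call held in all 13 alternatives and was lost without either Smad3 knockout library (adjusted p = 0.0672 and 0.0681) or either double knockout library (0.0753 and 0.056).

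For Rb1 the interaction was 1.20 (SE 0.33, adjusted p = 0.0338), with 32.3 and 28.0 CPM in the Smad2 knockout against 46.8 and 29.6 in the wild type, and 86.3 and 81.0 in the double knockout against 51.5 and 40.6 in the Smad3 knockout. Rb1 was not called with a length offset (0.78, adjusted p = 0.185), with length and GC offsets (0.34, adjusted p = 0.216), on the TPM scales (0.057 and 0.0621), with the compared groups alone (0.054) or in 9 of the 10 fits without 1 library.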

How the results depend on the processing

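Of 80 values of the 10 members in 8 comparisons, 34 were called, and 7 of these stayed called in all 13 alternatives and without any 1 library: Ccnd1 in the double knockout, Ccnd3 in the Smad2 and double knockouts and Cdkn2b in the Smad2 knockout (against wild type), Ccne2 from day 0 to day 4, and Myc and Rb1 between the double and Smad2 knockouts. Called values changed sign on the TPM plus 1 and TPM plus 0.1 scales for Ccnd1 between the Smad2 and Smad3 knockouts (-0.29 and -0.31), Ccne1 from day 0 to day 4 (0.057 and 0.058), between the Smad2 and Smad3 knockouts (-0.29 and -0.29) and between the double and Smad2 knockouts (0.34 and 0.34). Rb1 in the Smad2 knockout was 0.51 with length and GC offsets. The Ccnd2 interaction ran from -0.73 to 1.27 without 1 library. The cause was not tested.

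The number of members called in the Smad2 knockout was 9 on both TPM scales, where 6968 and 6951 of 14328 genes were called. In the Smad3 knockout it was 3 with no filter, 2 with the crossed block, the name series block, length and GC offsets or DESeq2, and 0 on both TPM scales and with the compared groups only. Between the Smad2 and Smad3 knockouts it was 1 with a length offset. Between the double and Smad2 knockouts it was 3 with a length offset. Between the double and Smad3 knockouts it was 5 with no filter and with length and GC offsets, 0 on the TPM plus 0.1 scale and 6 with the compared groups only. For the interaction it was 1 with a length offset and 1 with length and GC offsets. Without 1 library, the members called ran from 6 to 8 from day 0 to day 4, 3 to 6, 0 to 3 and 2 to 6 in the Smad2, Smad3 and double knockouts, 0 to 8 between the single knockouts, 3 to 6 and 0 to 5 between the double and the Smad2 and Smad3 knockouts, and 0 to 6 for the interaction.

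With the replicate number as a block, the members called were 7 from day 0 to day 4, 4, 1 and 5 in the knockouts, 7, 5 and 3 between knockouts and 3 for the interaction. Both double knockout libraries were in the first name series, so its comparisons were not balanced for series. Libraries with the same number deviated together in the 4 groups split over both name series (correlations of 0.11 to 0.51). The correlations with the double knockout (-0.18 to -0.04) cannot show a deviation shared by series, as both its libraries came from 1 series. The numbers were not taken to pair the samples. Within the first series, the double knockout differed from wild-type embryoid bodies by -1.56 for Ccnd1 and 2.37 for Ccnd3. The differences there were -0.76 for Ccne1, 1.27 for Cdkn2b, 0.84 for Rb1 and 1.19 for Myc. Over all genes, the Smad2 knockout had 6904 calls, 3320 with a length offset and 2461 with the compared groups only. The Smad3 knockout had 108, 1096 with no filter, 258 with the crossed block, 278 with the name series block, 191 with library totals, 1193 with length and GC offsets, 757 with DESeq2, 54 on the TPM plus 0.1 scale, 0 with the compared groups only and 2709 without wild-type day 4 replicate 2. The double knockout had 4506, 7032 with length and GC offsets, 2778 with the compared groups only and 2743 on the TPM plus 0.1 scale. Higher calls made up 43.4% in the Smad2 knockout and 11.5% on the TPM plus 1 scale, and 55.4% and 82.7% from day 0 to day 4. Depth limits Cdkn2a most, with 51 counts in its lowest library.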

Other observations

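The genes whose log2 CPM profiles over the 10 libraries lay closest to each member were found among 11217 other tested genes of at least 5 CPM on average, by the root mean square difference of centred profiles. For Ccnd1 they were Arl4a (0.215) and Slc7a3 (0.260), for Ccnd3 Baiap2 (0.141) and Tex264 (0.184), and for Ccne1 Eif1ad (0.127) and Ephx2 (0.149). Cdkn1b had the closest, Fam107b (0.091) and Serinc3 (0.113), and Ccnd2 the most distant, Zbtb4 (0.434) and Atxn1 (0.434). The measure was not scaled to a gene's own spread, which was smallest for Cdkn1b (SD 0.398) and largest for Ccnd2 (1.302). The nearest to Ccne2 were Tmem30a (0.126) and Rnf103 (0.148), to Rb1 Itgav (0.134) and Slc5a3 (0.144), to Cdkn2a Aprt (0.217) and Cdk2ap2 (0.256), and to Cdkn2b Dusp5 (0.350) and Igfbp4 (0.404). For Myc the nearest were Ctif (0.223) and E2f8 (0.229), the latter a repressor of E2F target genes from the lists above.

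Genes around the members were compared as well, by the median log2 difference of the other tested genes within 5 Mb. Around Ccnd1, which fell in all 3 knockouts, 119 genes had a median of 0.56 in Smad2 knockout and 0.23 in double knockout embryoid bodies. Around Ccnd3, 110 genes had medians of 0.30 and -0.11. Around Myc, 40 genes had medians of -0.16 and -0.32, and around Rb1, 73 genes had medians of 0.13 and -0.14. Beside Cdkn2a and Cdkn2b, Dmrta1 fell in the Smad2 knockout (-2.93, adjusted p = 0.00472) and the double knockout (-5.23, adjusted p = 0.000811), and Klhl9 fell by 1.15 in the double knockout (adjusted p = 0.0216).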
